A study of Rattus norvegicus with 24 samples.

Results

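The genes described here encode the proteins of the cytosolic ribosome. They were taken from the gene table by symbol, as every symbol that starts with Rpl or Rps and a number, the stalk genes Rplp0 to Rplp2 and Rpsa, without the Rps6k kinases. This gave 81 of the 10851 genes. Of these, 27 encode proteins of the small (40S) subunit, 32 encode proteins of the large (60S) subunit, and Rplp0 and Rplp1 encode proteins of the stalk on which elongation factors dock. A further 6 are paralogues (Rpl3l, Rpl7l1, Rpl22l1, Rpl36al, Rps27l and Rps4y2), 13 are pseudogenes or other copies, and Rps19bp1 encodes a protein that binds Rps19 and is not part of the ribosome. The 61 subunit and stalk genes are called canonical below. They are 61 of 77 listed canonical genes, and the other 16 were not analysed here. All 81 genes passed the filter on low counts.

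RNA was sequenced from the medial gastrocnemius of 24 male Wistar rats, 6 in each of 4 groups. Sed rats received saline and stayed sedentary, Ex rats received saline and trained on a treadmill, CC-Sed rats received monocrotaline and stayed sedentary, and CC-Ex rats received monocrotaline and trained on a treadmill. Monocrotaline injures the vessels of the lung and leads to failure of the right heart and to cardiac cachexia (CC), so its direct effects and those of heart failure on muscle cannot be told apart in this model. Only CC rats that survived and showed right ventricular enlargement were kept by the study. Ages were not given in the sources used here.

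Each ribosome holds a single copy of nearly all of its proteins, and cells adjust the production of the whole set together. Ribosomal protein mRNAs start with a 5′ terminal oligopyrimidine (TOP) tract, a cytosine followed by a run of pyrimidines. Through this tract the growth-controlling kinase complex mTORC1 and the RNA-binding protein Larp1 set their translation and stability. In muscle, ribosome content follows growth and wasting, and Rpl3l is a paralogue of Rpl3 that is largely limited to striated muscle.

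The first bases of the annotated transcripts are shown because the tract is the sequence feature that ties these genes together. RefSeq promoter sequences (build GRCr8) were matched by symbol for 55 of the 81 genes. Each line holds 30 bases, 5′ to 3′ on the strand of the gene, with the annotated first transcribed base at position 16. Capitals mark a run of at least 5 C or T bases that holds this first base. The genes were drawn from those described below, and the paralogues are shown for contrast with the canonical genes.
Rpl10: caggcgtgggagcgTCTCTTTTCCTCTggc
Rps27: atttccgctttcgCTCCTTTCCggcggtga
Rplp0: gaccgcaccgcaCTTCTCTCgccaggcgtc
Rplp1: gcaggcgcatgtgaTCCTTTCCTCagctgc
Rps9: tccggcggccacgTTTCTCTTTgtcacggg
Rps10: gccgcgcacgCCCCTTCCTTTCCagcctcc
Rpl12: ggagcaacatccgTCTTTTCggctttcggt
Rps6: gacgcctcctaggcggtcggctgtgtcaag
Rps19: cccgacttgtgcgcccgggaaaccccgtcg
Rpl3l: gacctctggtgcctggtggggaggtccctt
Rps27l: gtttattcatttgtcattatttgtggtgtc
Rpl22l1: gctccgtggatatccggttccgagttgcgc

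In GRCr8 these windows lie at chrX:157205835-157205864 for Rpl10, chr1:74430423-74430452 for Rps9, chr20:5700730-5700759 for Rps10 and chr2:177964592-177964621 for Rps27. The other canonical windows lie at chr12:46718376-46718405 for Rplp0, chr8:71290858-71290887 for Rplp1, chr3:36661925-36661954 for Rpl12, chr5:106420526-106420555 for Rps6 and chr1:89608673-89608702 for Rps19. The paralogue windows lie at chr10:14258431-14258460 for Rpl3l, chr8:76443643-76443672 for Rps27l and chr2:113683181-113683210 for Rpl22l1. Rpl10, Rps19, Rpl12, Rpl3l, Rps27l and Rpl22l1 are on the plus strand and the others on the minus strand. Each window spans the annotated start of a transcript, upstream sequence on its left and the start of the 5′ UTR on its right.

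Rpl10, Rps27, Rplp0 and Rplp1 start with C inside a pyrimidine run. Rps9, Rps10 and Rpl12 have a run around the annotated start but do not begin with C at that base. No such run holds the annotated first base of Rps6, Rps19, Rpl3l, Rps27l or Rpl22l1. By a strict definition, a C at the annotated start followed by 4 bases that are each C or T on the strand of the gene, 18 of 48 canonical promoters had a tract (37.5%) and 0 of 5 paralogue promoters had one. The share was 2.74% over the promoters of all table genes that were matched, and 3.7% over 54 genes of mitochondrial ribosomal proteins. By a looser definition, a run of at least 6 such bases on that strand within 5 bases of the start, the shares were 68.8% of canonical promoters, 20% of paralogue promoters and, over all RefSeq rat promoters, 18.7%. The start sites used in these muscles were not mapped, and a window without the letters says nothing of regulation.

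Most of these genes had somewhat higher levels in monocrotaline rats than in saline rats. In CC-Sed vs. Sed the Log2FC was positive for 77 of the 81 genes, where 52.5% of all genes were positive, with a median of 0.25 against 0.021 over all genes. In CC-Ex vs. Ex it was positive for 75, where 51.6% of all genes were positive, with a median of 0.21 against 0.013. These comparisons share no rats, though they share the model and its scaling, and 75 genes (92.6%) were positive in both, against 42.6% of all genes. Most of these genes vary together from rat to rat, as described below. A few rats can therefore move most signs at once, and the counts are not counts of independent genes. A median of 0.25 on the log2 scale is a small change, and the rats with high values were not all of the monocrotaline rats, as described below. In whole muscle, a change in the cells present and a change in the RNA of each cell cannot be told apart.

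**Figure D1:**
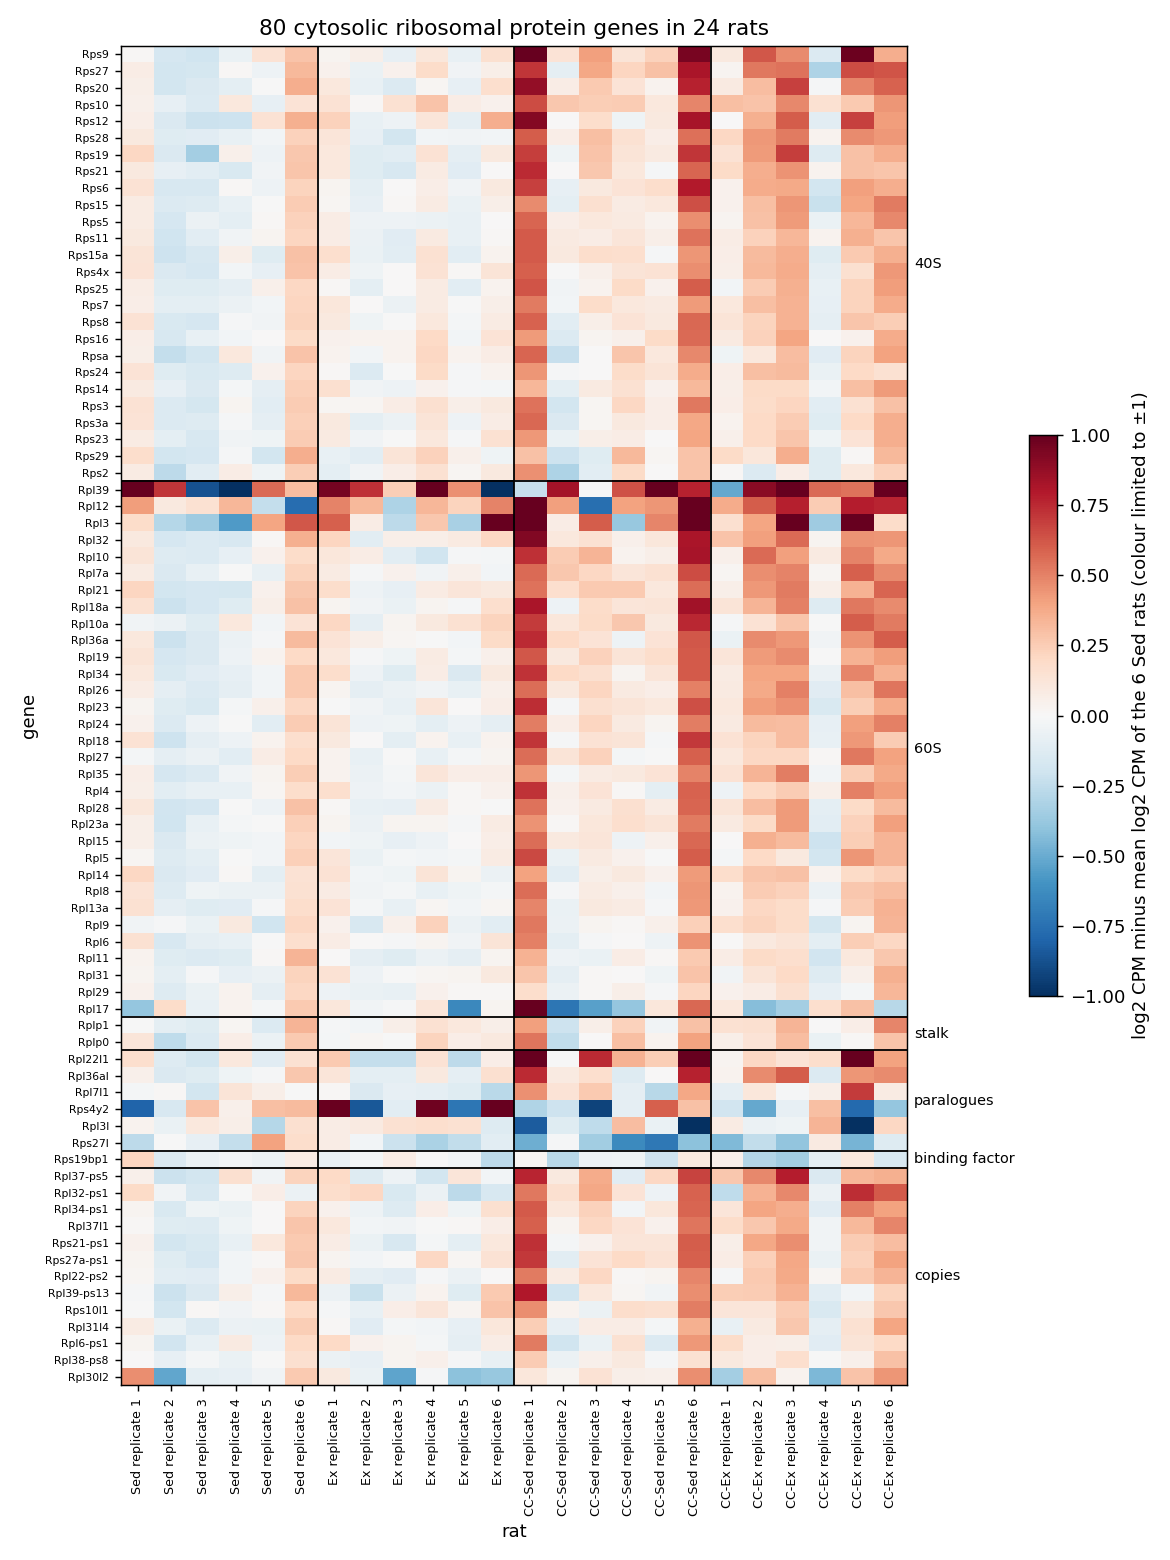
Heat map of 80 of the 81 genes (rows, by class and then by their mean difference in monocrotaline rats) in the 24 rats (columns). Colour gives the log2 CPM minus the mean log2 CPM of the 6 Sed rats, limited to ±1. CC-Sed replicates 1 and 6 and CC-Ex replicates 2, 3, 5 and 6 are red over most rows, and CC-Ex replicate 4 is not. Other rats also lie above the Sed mean for most of the 61 canonical genes. Among them are Sed replicates 6 (60 genes) and 1 (55), Ex replicate 1 (54), CC-Sed replicates 3 and 4 (54 each) and CC-Ex replicate 1 (52). Rpl3l, Rps27l and Rps4y2 do not follow the other rows.

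Few single genes passed the test within either comparison. A gene was called with an adjusted p-value under 0.05 in the edgeR quasi-likelihood test over all genes. In CC-Sed vs. Sed, 1 of 81 genes was called higher (4.3% of all genes) and 1 lower (2.16% of all genes). In CC-Ex vs. Ex, 0 were called higher (0.875% of all genes) and 0 lower (0.12% of all genes) by edgeR. At an unadjusted p under 0.05, 45 genes were higher in CC-Sed (16.7% of all genes) and 1 lower (11.7% of all genes), and 29 were higher in CC-Ex (14.8% of all genes) and 1 lower (7.72% of all genes). With a Log2FC of at least 1 as a further condition, 0 of 81 were called by edgeR in either direction, in CC-Sed vs. Sed (1.38% of all genes higher and 0.488% lower) or in CC-Ex vs. Ex (0.442% and 0.0829%). The edgeR share of all genes in CC-Ex vs. Ex was itself unstable, and fell to 0.00922% with the replicate numbers as a block or with only the rats compared, where 0 of the 81 were called as well. DESeq2 called 8 of the 81 genes higher in CC-Sed (7.36% of all genes) and 4 in CC-Ex (4.91% of all genes), and limma-voom with quality weights called 12 (13.4% of all genes) and 21 (5.72% of all genes). Except for limma-voom in CC-Ex vs. Ex, these counts are near the shares of all genes. For no member did all 6 rats of a monocrotaline group lie above or below all 6 of its control group, which held for 2.32% of all genes upward and 1.29% downward in CC-Sed vs. Sed and for 0.737% and 0.341% in CC-Ex vs. Ex.

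**Figure D2:**
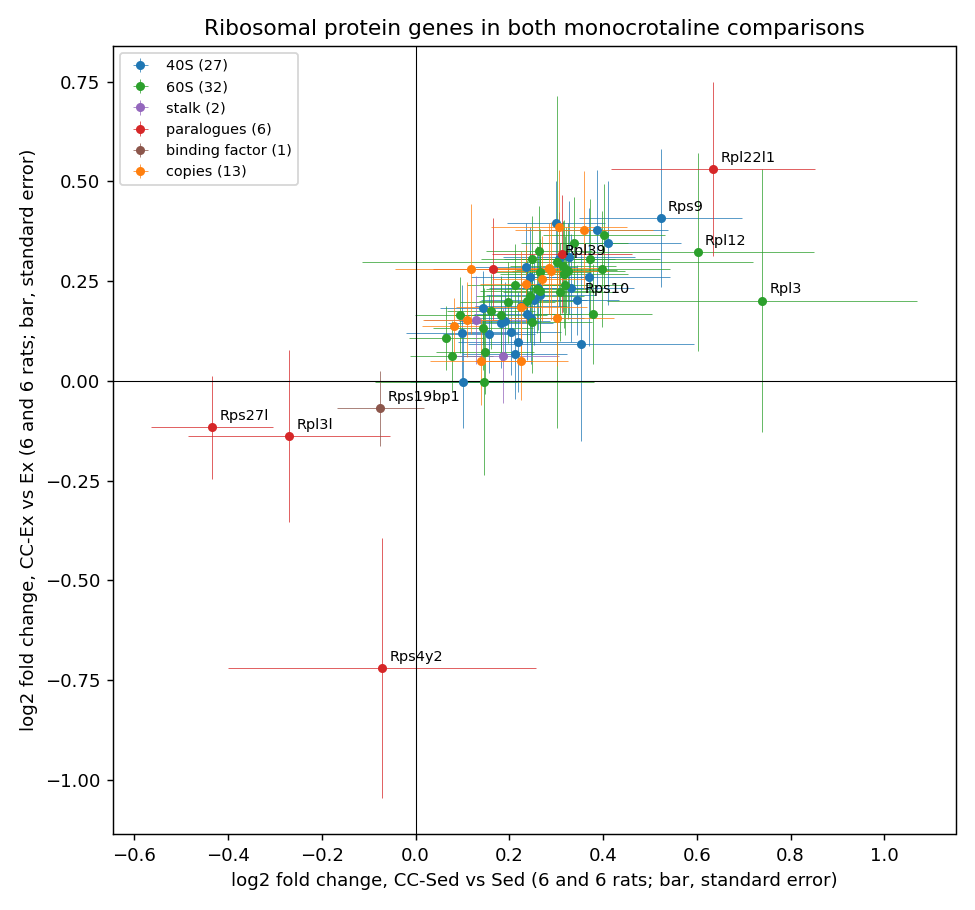
Log2FC of each of the 81 genes in CC-Sed vs. Sed (x axis) and in CC-Ex vs. Ex (y axis), coloured by class, with standard errors from edgeR (6 rats per group). The points of 75 genes lie in the upper right, and Rps27l, Rpl3l, Rps19bp1 and Rps4y2 lie in the lower left.

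The gene called higher in sedentary rats was Rps10, a protein of the 40S head that is mutated in some cases of Diamond-Blackfan anaemia. Its lowest, median and highest CPM (the count scaled to the TMM-adjusted library size) were 22.9, 25 and 27.7 in Sed and 27.1, 30.2 and 39.6 in CC-Sed. The highest Sed rat lay above the lowest CC-Sed rat, and 6 of 6 CC-Sed rats lay above the Sed median. The Log2FC was 0.35 (SE 0.088, edgeR adjusted p = 0.0267). In trained rats the values were 25.4, 27.2 and 30.6 CPM in Ex and 27.9, 30.8 and 35.2 CPM in CC-Ex. There the Log2FC of 0.20 did not pass (edgeR adjusted p = 0.182), though each of the 6 CC-Ex rats exceeded the median Ex rat. The call in sedentary rats was lost with upper-quartile scaling (edgeR adjusted p = 0.0775) and without CC-Sed replicates 1 and 6, where the Log2FC was 0.22 (edgeR adjusted p = 0.234). A copy, Rps10l1, is among the 81 genes and could share reads with Rps10, so the value of each is uncertain.

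The gene called lower was Rps27l, a paralogue of Rps27 known as a target of p53. Its lowest, median and highest CPM were 21.3, 24.7 and 33.7 in Sed and 15.5, 18.7 and 25.3 in CC-Sed. Only CC-Sed replicate 2 lay above the Sed median, and the ranges overlapped. The Log2FC was -0.43 (SE 0.13, edgeR adjusted p = 0.0479). This call was near the threshold, as it was kept in 6 of 24 fits that each left out 1 rat and lost with the replicate numbers as a block (adjusted p = 0.0616 in edgeR). In trained rats the values were 20.5, 22.8 and 26.8 CPM in Ex and 18.5, 20.4 and 27.1 CPM in CC-Ex, with a Log2FC of -0.12 (edgeR adjusted p = 0.581). The difference between both effects (the interaction) was 0.32 with an unadjusted p of 0.0954 and an edgeR adjusted p of 1, so a difference between sedentary and trained rats is not shown.

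With both monocrotaline groups set against both saline groups, 43 of 81 genes were called higher (53.1%), where 17.2% of all genes were called higher. The gene called lower was Rps27l again, where 10.6% of all genes were called lower. The Log2FC was positive for 77 genes, where 51.9% of all genes were positive, with a median of 0.23 against 0.014. At an unadjusted p under 0.05, 56 were higher (24.7% of all genes) and 1 lower (17.7% of all genes), and 0 had a called Log2FC of at least 1 (2.06% of all genes higher and 0.829% lower). Canonical genes made up 34 of the 43, with 14 of 27 for the 40S, 20 of 32 for the 60S and 0 of 2 for the stalk. The other calls were 7 of 13 copies and the paralogues Rpl22l1 and Rpl36al. This pooled comparison uses the same rats as both comparisons above and is not a further test of them.

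This count rested on few rats and on the scaling. Without CC-Sed replicates 1 and 6 together, 10 of the 81 genes were called higher, near the share of all genes (9.52%), and the median Log2FC of CC-Sed vs. Sed fell to 0.072, with 69 genes still positive. These rats had the highest mean level of the 81 genes among the CC-Sed rats, so leaving them out lowers the difference by construction. Leaving out only CC-Sed replicate 1 gave 25 genes (12.4% of all genes) and leaving out only replicate 6 gave 24 (12% of all genes). With upper-quartile scaling 18 genes were called higher (12.2% of all genes) and the split over all genes turned from 1866 higher and 1151 lower to 1324 higher and 1605 lower. The gap between the median of the 81 genes and that of all genes moved little with this scaling, from 0.22 to 0.21.

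The libraries of these rats also differed in composition. The 81 genes held 0.979% to 1.26% of all counts in Sed and 1.04% to 1.24% in Ex. In CC-Sed they held 1.91% in replicate 1 and 1.80% in replicate 6, and at least 1.09% and less than the highest Sed rat in the other 4. In CC-Ex they held 0.997% in replicate 4, and 1.15% to 1.65% in the other 5. CC-Sed replicates 1 and 6 and CC-Ex replicate 5 also had the lowest share of counts in the 10 highest genes, at 24.8%, 26.0% and 26.3%, where the median Sed rat had 32.3%. Without the 5 rats whose TMM factor was above 1.1, 0 of the 81 genes were called higher by edgeR in the pooled comparison (15 at an unadjusted p under 0.05), where 6.38% of all genes were. The median Log2FC was 0.11 and 73 genes were positive. Those 5 rats included CC-Sed replicates 1 and 6 and CC-Ex replicates 2 and 3, in which the 81 genes held 1.52% to 1.91% of counts. That is above every saline rat, so leaving them out also lowers the difference by construction. The library numbers of these rats were 4, 21, 2 and 3, in that order. Library numbers ran from 1 to 14 in CC-Ex, 4 to 21 in CC-Sed, 7 to 23 in Ex and 9 to 24 in Sed. The labels do not say what the numbers stand for. A linear covariate for the library number cannot fully take up a shift shared by neighbouring libraries. The part of library order was not tested. With the share of the 10 highest genes as a covariate, 1 gene was called (4.08% of all genes), and the median was 0.084. The part of library composition in the difference was not tested, and these fits do not measure it.

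**Figure D3:**
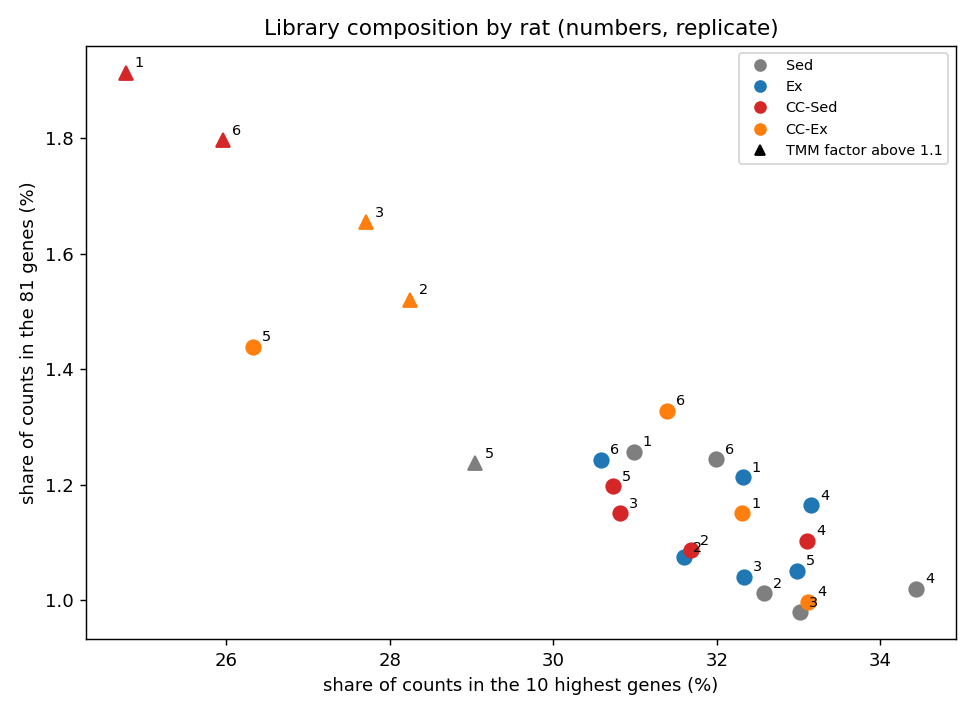
Share of each rat's counts in the 81 genes (y axis, %) against the share in its 10 highest genes (x axis, %), coloured by group and numbered by replicate. Triangles are the 5 rats with a TMM factor above 1.1. CC-Sed replicates 1 and 6 lie at the upper left, at 1.91% and 1.80%, and the Sed and Ex rats lie at or below 1.26%.

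Total counts lay between 37816239 and 50350554 per rat, and the lowest count of any of the 81 genes in a rat was 13. Fast-fibre markers (6 of 8 in the table) summed to between 78573 and 213076 CPM over the 24 rats. Their median sum was 151829 CPM in Sed and 98081 CPM in CC-Sed, and for the trained groups 150478 CPM (Ex) and 150785 CPM (CC-Ex). In CC-Sed replicates 1 and 6, which had the highest levels of the 81 genes in their group, the sum was 88585 and 78573 CPM. CC-Sed replicate 5 had 84485 CPM, with 1.20% of its counts in the 81 genes. CC-Ex replicate 6 had 187188 CPM and the highest mean level of the 81 genes in its group. In CC-Sed vs. Sed all 6 markers had a negative Log2FC, with a median of -0.36, and 0 were called by edgeR (1 at an unadjusted p under 0.05). Fibroblast markers (6 of 6) summed to between 399 and 2836 CPM in Sed and between 481 and 1494 CPM in CC-Sed, and to between 830.2 and 4962 CPM in Ex and between 151 and 1571 CPM in CC-Ex. In the pooled comparison 3 of the 6 were called lower. Each deposited gene had at least 10 counts in every rat, so the presence of a listed marker in every rat was fixed in advance. Erythroid markers (3 of 4) summed to between 49.9 and 129.8 CPM in Sed and 92.2 and 209.6 CPM in Ex, and to between 50.5 and 409 CPM in CC-Sed and 33.8 and 960.0 CPM in CC-Ex, and 2 were called higher. Of 5 of 6 endothelial markers 2 were called higher and the other 3 had a negative Log2FC, 1 of them at an unadjusted p under 0.05 (median of the list -0.10), with sums between 147 and 234 CPM in Sed, 178 and 261 CPM in CC-Sed, 163 and 224 CPM in Ex, and 164 and 276 CPM in CC-Ex. Of 8 macrophage markers, which summed to at most 276 CPM in any rat, 0 were called by edgeR in the pooled comparison, and 0 had an unadjusted p under 0.05. In that comparison 0 of 4 slow-fibre markers were called and 0 had an unadjusted p under 0.05, though all 4 were positive (median 0.97), with sums of at most 2102 CPM in Sed, 7381 in CC-Sed, 6439 in Ex and 5285 in CC-Ex. Their median Log2FC was 1.83 in CC-Sed vs. Sed, where all 4 were positive, and 0.10 in CC-Ex vs. Ex, where 2 were. In each of these comparisons 0 were called by edgeR and 0 had an unadjusted p under 0.05. Of the other lists, 1 of 3 satellite cell markers was called higher, the 1 adipocyte marker was called lower, and 0 of 2 Schwann cell markers (2 at an unadjusted p under 0.05) and 0 of 1 lymphocyte marker (0 at that p) were called by edgeR. The part of other cell types in the difference was not tested.

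Among proteins of the 40S subunit, Rps9, Rps28, Rps27, Rps6 and Rps19 rose in the pooled comparison. Rps9 is an early-assembling protein near the mRNA entry site. Its lowest, median and highest CPM were 117, 132 and 163 in Sed, 146, 168 and 275 in CC-Sed, 127, 138 and 149 in Ex and 122, 179.6 and 264 in CC-Ex. CC-Sed replicates 1 and 6 and CC-Ex replicate 5 were the highest rats, and the groups overlapped. The pooled Log2FC was 0.47 (SE 0.12, edgeR adjusted p = 0.00946), with 11 of 12 monocrotaline rats above the saline median.

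Rps27, a zinc-binding protein of the 40S subunit, had a lowest, median and highest CPM of 95.3, 107 and 135 in Sed, 102, 137 and 191 in CC-Sed, 104, 111 and 123 in Ex and 87.6, 157 and 170.3 in CC-Ex. CC-Sed replicates 1, 3 and 6 and CC-Ex replicates 2, 3, 5 and 6 lay above all saline rats. CC-Sed replicates 2, 4 and 5 and CC-Ex replicate 1 lay among them, and CC-Ex replicate 4 lay below them. The pooled Log2FC was 0.38 (SE 0.11, edgeR adjusted p = 0.0156).

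Rps28, a small protein at the mRNA exit site, had the smallest adjusted p-value of the 81 genes in the pooled comparison. Its CPM was 44, 46.1 and 56 in Sed, 49.9, 55.9 and 72.5 in CC-Sed, 42, 46.7 and 51.8 in Ex and 49, 64.4 and 68.4 in CC-Ex, again as lowest, median and highest. All 12 monocrotaline rats were above the saline median, and the lowest of them overlapped the highest saline rats. The pooled Log2FC was 0.35 (SE 0.074, edgeR adjusted p = 0.00281). In sedentary rats alone it was 0.30 (edgeR adjusted p = 0.0764), and among trained rats 0.40 (edgeR adjusted p = 0.0594), neither of which was called. Of the fits above, the pooled call was kept without CC-Sed replicates 1 and 6 (0.27, edgeR adjusted p = 0.0104) and with the top-gene share as a covariate (0.21, edgeR adjusted p = 0.0455), and narrowly lost without the rats of high TMM factor (0.23, edgeR adjusted p = 0.052).

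Rps6, the 40S protein that S6 kinases phosphorylate, ranged from 198 to 259 CPM in Sed, 209 to 384 in CC-Sed, 207 to 237 in Ex and 195 to 294 in CC-Ex. It rose in the pooled comparison (Log2FC 0.28, SE 0.10, edgeR adjusted p = 0.0337), though CC-Ex replicate 4 was the lowest of all 24 rats and the call was kept in 15 of 24 fits that left out 1 rat. Rps19, the gene most often mutated in Diamond-Blackfan anaemia, ranged from 49.3 to 75.2 CPM in Sed, 60.5 to 102 in CC-Sed, 57.5 to 69.1 in Ex and 57.2 to 101 in CC-Ex. Its pooled Log2FC was 0.32 (edgeR adjusted p = 0.0232). Rpsa, also known as the laminin receptor, had a pooled Log2FC of 0.16 (edgeR adjusted p = 0.18), and Rps2, a protein near the decoding site, one of 0.049 (edgeR adjusted p = 0.661). Neither difference passed the test.

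**Figure D4:**
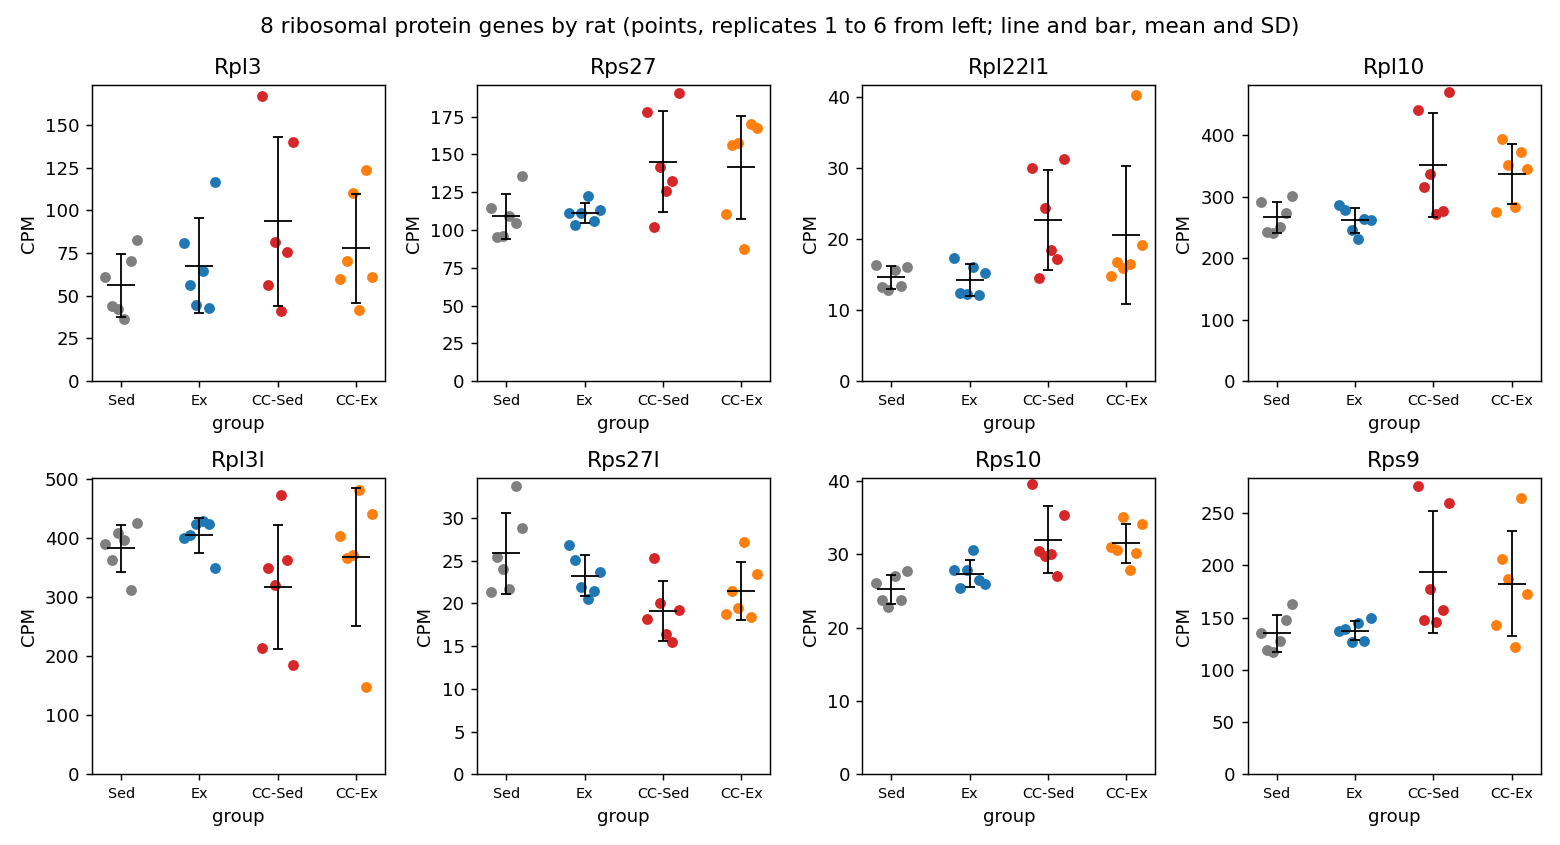
CPM of 8 genes in every rat, by group, with axes from 0. Points are replicates 1 to 6 from left to right, and the line and bar give the mean and SD of 6 rats. For Rpl3, CC-Sed replicates 1 and 6 are the highest rats and for Rpl3l they are among the lowest, while in most CC-Sed rats Rps27 is above and Rps27l below the Sed mean.

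Among proteins of the 60S subunit, Rpl10, which joins late and completes the subunit near the peptidyl transferase centre, was raised in the pooled comparison. Its lowest, median and highest CPM were 241, 262 and 301 in Sed, 271, 326 and 469.9 in CC-Sed, 232, 263 and 287 in Ex and 275, 348 and 393 in CC-Ex. All 12 monocrotaline rats lay above the saline median, and CC-Sed replicates 1 and 6 were far above the highest saline rat. The pooled Log2FC was 0.38 (SE 0.092, edgeR adjusted p = 0.00591), and it was called in 24 of 24 fits that left out 1 rat. The call was lost without the rats of high TMM factor and with the top-gene share as a covariate.

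Rpl3 and Rpl12 had larger Log2FC values in sedentary rats than Rpl10 but a wider spread. Rpl3, which lines the approach to the peptidyl transferase centre, had a lowest, median and highest CPM of 36.2, 52.5 and 82.6 in Sed, 41.2, 78.4 and 167 in CC-Sed, 42.9, 60.5 and 117 in Ex and 41.9, 65.6 and 124 in CC-Ex. Its Log2FC was 0.74 in sedentary rats (SE 0.33, edgeR adjusted p = 0.149) and 0.20 in trained rats (SE 0.33, edgeR adjusted p = 0.721). Neither passed the test, and CC-Sed replicates 1 and 6 were the highest of all rats. Rpl12, at the base of the stalk, ranged from 56.2 to 127 CPM in Sed and 56.5 to 230.5 CPM in CC-Sed, with a Log2FC of 0.60 (SE 0.25, edgeR adjusted p = 0.122).

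Rpl5 and Rpl11, which bind the 5S ribosomal RNA and, when free, the p53 regulator Mdm2, had pooled Log2FC values of 0.20 (edgeR adjusted p = 0.0984) and 0.13 (edgeR adjusted p = 0.145). Rpl4, a protein of the exit tunnel, passed the pooled test with 0.25 (edgeR adjusted p = 0.0475). The stalk genes did not pass it, with 0.12 for Rplp0 (edgeR adjusted p = 0.263) and 0.14 for Rplp1 (edgeR adjusted p = 0.167). Rpl39, another protein of the exit tunnel, varied the most between rats of a group, from 2.23 to 14.8 CPM in Sed and 2.02 to 15.2 CPM in Ex. Its Log2FC was 0.30 in sedentary and 0.30 in trained rats, each smaller than its standard error of 0.42, and its copy Rpl39-ps13 makes its values uncertain. Rpl17 had Log2FC values of 0.15 and -0.0018 (edgeR adjusted p = 0.701 and 0.997).

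The paralogues did not move as a group, with 3 of 6 positive and 3 negative in the pooled comparison. Rpl22l1, a paralogue of Rpl22, had the largest pooled Log2FC of the 81 genes. Its lowest, median and highest CPM were 12.8, 14.5 and 16.3 in Sed, 14.5, 21.4 and 31.3 in CC-Sed, 12.1, 13.7 and 17.4 in Ex and 14.8, 16.6 and 40.2 in CC-Ex. All 12 monocrotaline rats lay above the saline median, and CC-Ex replicate 5 was far above the other CC-Ex rats. The pooled Log2FC was 0.58 (SE 0.15, edgeR adjusted p = 0.00986), and without CC-Ex replicate 5 it was 0.41. In trained rats the Log2FC fell from 0.53 to 0.22 without that rat. Rpl22 itself was not analysed here. Rpl36al, a copy of Rpl36a that makes a near-identical protein, rose by 0.31 (edgeR adjusted p = 0.0303) and Rpl36a by 0.29 (edgeR adjusted p = 0.0284).

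Rpl3l had a lowest, median and highest CPM of 313, 393 and 426 in Sed, 185, 335 and 473 in CC-Sed, 349, 414 and 428 in Ex and 147, 387 and 481 in CC-Ex. CC-Sed replicates 1 and 6 and CC-Ex replicate 5, at 214, 185 and 147 CPM, lay below all saline rats, while the other monocrotaline rats lay among or above them. The Log2FC was -0.27 in sedentary rats (SE 0.22, edgeR adjusted p = 0.416) and -0.14 in trained rats (SE 0.22, edgeR adjusted p = 0.706). Neither passed the test. Rps4y2, a relative of Rps4x, was near 1 CPM or below in most rats, and its Log2FC of -0.72 in trained rats did not pass the test (edgeR adjusted p = 0.195).

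The balance between a gene and its paralogue was compared as the log2 ratio of their CPM in each rat. For Rps27 to Rps27l the lowest, median and highest ratios were 1.63, 2.11 and 2.42 in Sed, 2.01, 3.01 and 3.31 in CC-Sed, 2.05, 2.28 and 2.58 in Ex and 1.69, 2.85 and 3.20 in CC-Ex. All tests of these ratios were exact permutations of 6 against 6 rats, two-sided, adjusted by Benjamini-Hochberg over 6 tests. Between Sed and CC-Sed the mean ratio differed by 0.82, higher in CC-Sed (exact p = 0.00866, adjusted p = 0.0519), and the difference between CC-Ex and Ex was 0.43 (exact p = 0.104, adjusted p = 0.255). Neither passed the correction. For Rpl3 to Rpl3l the differences were 0.97 for CC-Sed against Sed (exact p = 0.128) and 0.42 for CC-Ex against Ex (exact p = 0.487), and within CC-Sed the ratio ran from -3.52 to -0.36. For Rpl36a to Rpl36al they were 0.024 and -0.052 (exact p = 0.621 and 0.407).

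The copies were also higher in monocrotaline rats. All 13 were positive in both comparisons, with medians of 0.23 in sedentary and 0.24 in trained rats, and 7 were called higher in the pooled comparison. Of the 13, 6 resemble canonical genes that were not analysed here. Reads shared between a copy and its parent could be split by the quantification, so their values are uncertain. As examples, Rpl37-ps5 had a pooled Log2FC of 0.37 (edgeR adjusted p = 0.0141) and Rpl30l2 one of 0.20 (edgeR adjusted p = 0.188). Rps19bp1 had values of -0.075 and -0.069, below their standard errors of 0.093 in both comparisons.

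Within groups most of these genes varied together from rat to rat. After removal of the group means, the correlation of each gene with the mean of the other 80, over 24 rats whose values share a library and its scaling, had a median of 0.90, and 72 genes were above 0.5. The median was 0.97 for 44 proteasome genes and 0.76 for 71 genes of mitochondrial ribosomal proteins, each within its own set. The exceptions were Rpl3l at -0.56, Rps27l at -0.11 and Rps4y2 at 0.042, all paralogues. Rpl39, at 0.068, was the least correlated canonical gene. The median SD within groups was 0.19 on the log2 scale, against 0.30 over all genes. The largest SD values were 0.86 for Rpl39, 0.60 for Rpl3 and 0.57 for Rps4y2.

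Genes with a TOP tract at the annotated start had slightly lower medians than genes without one, a difference that was not tested. The pooled Log2FC had a median of 0.21 over the 19 genes with a strict tract, from 0.07 to 0.38, and of 0.24 over the 36 without one, from -0.40 to 0.58. In these groups 9 and 16 genes were called higher. With the looser definition the medians were 0.23 over 35 genes and 0.24 over 20. Over canonical genes alone the medians were 0.22 with a strict tract (18 genes) and 0.27 without one (30 genes). By the looser definition they were 0.23 (33 canonical genes) and 0.28 (15 canonical genes).

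No effect of training on these genes passed the test. In Ex vs. Sed the median Log2FC was 0.0091, from -0.23 for Rpl30l2 to 0.44 for Rps4y2, with 48 of 81 positive (52.6% of all genes). In CC-Ex vs. CC-Sed the median was -0.025, with a highest value of 0.23 for Rpl39, and 27 of 81 positive (53% of all genes). In both comparisons, and for the interaction, where 26 of 81 genes were positive (50.9% of all genes), 0 of 81 genes were called in edgeR. At an unadjusted p under 0.05 there were 0 in each direction, where the shares of all genes, higher and lower, were 0.746% and 0.341% for Ex vs. Sed, 1.07% and 1.09% for CC-Ex vs. CC-Sed, and 0.516% and 0.903% for the interaction. DESeq2 and limma-voom also called 0 of them. The direction in CC-Ex vs. CC-Sed was not stable, since with limma-voom and its quality weights 67 of 81 genes were positive with a median of 0.054. Among all genes, edgeR called 0 (0%) in each of these 3 contrasts. The largest difference between the sedentary and trained effects was that of Rps4y2, at -0.65 with a standard error of 0.46 (edgeR adjusted p = 1), and for Rpl3 it was -0.54 with a standard error of 0.47.

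Genes around the ribosome were taken from lists. Rack1, a ribosomal protein whose symbol falls outside the rule, had a pooled Log2FC of 0.15 and did not pass the test (edgeR adjusted p = 0.105). Of 17 other mRNAs listed as TOP mRNAs from general knowledge, 13 had a RefSeq promoter, of which 0 held a strict tract at the annotated start and 7 a loose one (53.8%). Of the 17, 10 were called higher (17.2% of all genes) and 0 lower (10.6% of all genes) in the pooled comparison, with a median of 0.27. Among them were Npm1, a nucleolar chaperone (Log2FC 0.72, edgeR adjusted p = 0.00129), Naca, which binds nascent chains (0.70, edgeR adjusted p = 0.00178), and the elongation factor Eef2 (0.35, edgeR adjusted p = 0.00588). Without CC-Sed replicates 1 and 6, 8 of the 17 were called higher, without the rats of high TMM factor 5, and with the share of the 10 highest genes as a covariate 3 (median 0.14). For these settings, here and in the lists that follow, the shares of all genes called higher are those given above. The elongation factor Eef1a1 had 0.23 and did not pass (edgeR adjusted p = 0.358).

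Of 40 genes for RNA polymerase I and ribosome assembly, 25 were called higher (17.2% of all genes) and 0 lower (10.6% of all genes) in the pooled comparison, with a median Log2FC of 0.41. Polr1a, the largest subunit of RNA polymerase I, rose by 1.00 (edgeR adjusted p = 0.012), the assembly factor Nob1 by 1.11 (edgeR adjusted p = 0.00312), and Myc, a transcription factor that drives these genes, by 2.52 (edgeR adjusted p = 0.00333). Fbl, which methylates ribosomal RNA, had 0.065 and did not pass (edgeR adjusted p = 0.72). Of these 40 genes, 1 was called higher in CC-Sed vs. Sed (4.3% of all genes) and 0 in CC-Ex vs. Ex (0.875% of all genes) by edgeR. In CC-Ex vs. Ex 23 were higher at an unadjusted p under 0.05 (14.8% of all genes). In the pooled comparison 5 were called higher without CC-Sed replicates 1 and 6 (median 0.33) and 0 by edgeR with the share of the 10 highest genes as a covariate (4 at an unadjusted p under 0.05, median 0.12).

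Of 27 genes that link mTORC1 to translation, 9 were called higher (17.2% of all genes) and 4 lower (10.6% of all genes) in the pooled comparison. Several of those that rose inhibit the pathway or translation. Ddit4, an mTORC1 inhibitor, rose by 2.84 (edgeR adjusted p = 3.17e-04), Sesn1, a sestrin that restrains mTORC1, by 2.25 (edgeR adjusted p = 3.92e-04), and Eif4ebp1, a repressor of the cap-binding protein Eif4e, by 1.98 (edgeR adjusted p = 6.46e-04). Mtor itself rose by 0.25 (edgeR adjusted p = 0.0109). Deptor, an mTOR inhibitor, fell by 0.86 (edgeR adjusted p = 0.0262) and Sesn3, another sestrin, fell by 0.93 (edgeR adjusted p = 0.00527). Without CC-Sed replicates 1 and 6, 6 were called higher and 2 lower, and with the covariate for the 10 highest genes 4 and 1. Larp1, which binds TOP tracts, had 0.29 and did not pass (edgeR adjusted p = 0.135).

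The mitochondrial ribosome and the proteasome were described for comparison. In the pooled comparison 17.2% of all genes were called higher and 10.6% lower. Of 71 genes of mitochondrial ribosomal proteins 3 were called higher in it and 7 lower, the latter near the share of all genes, and their median Log2FC was -0.12. Of 44 proteasome genes 26 were called higher and 1 lower, with a median of 0.47. Without CC-Sed replicates 1 and 6, 4 proteasome genes were called higher and 1 lower (median 0.29), and of the mitochondrial genes 0 and 1. With the share of the 10 highest genes as a covariate, 0 genes of either list were called by edgeR (at an unadjusted p under 0.05, 5 proteasome genes higher and 1 lower, and 5 and 3 mitochondrial genes), and the medians were 0.10 for the proteasome and 0.0063 for the mitochondrial ribosome. Differences between these lists and the 81 genes were not tested.

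**Figure D5:**
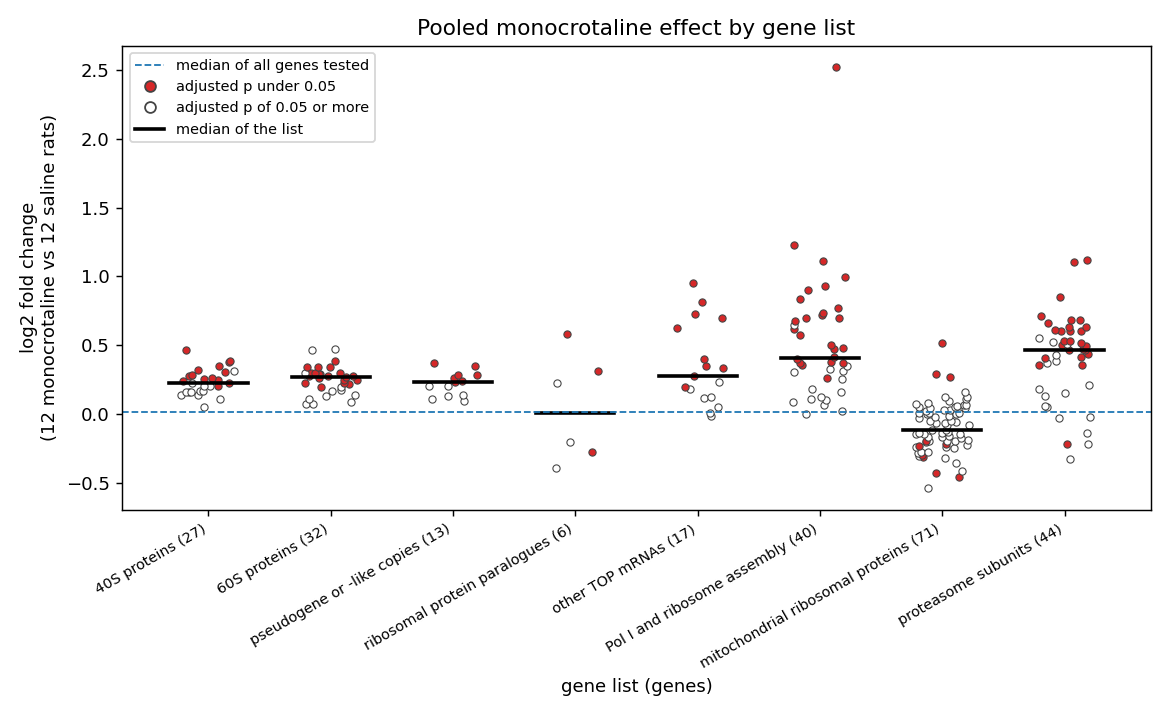
Pooled Log2FC (12 monocrotaline vs. 12 saline rats) of each gene in 8 lists, with the number of genes in brackets. Red points have an edgeR adjusted p under 0.05, the black line is the median of the list and the dashed line the median of all genes. Medians are 0.23 for the 40S, 0.27 for the 60S, 0.41 for RNA polymerase I and assembly, 0.47 for the proteasome and -0.12 for mitochondrial ribosomal proteins.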

How the data were processed

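Poly-A RNA of 24 rats was sequenced as stranded libraries, 6 separate animals in each of 4 groups. The authors trimmed the reads with Trim Galore, quantified them with Salmon on Ensembl transcripts of rat build mRatBN7.2, summed them per gene with tximport, and deposited estimated counts per gene as whole numbers. The submitters' notes also name DESeq2 1.44.0. Each of the 10851 deposited genes had at least 10 counts in every rat, so a gene that fell below 10 in any rat is not in the table. Salmon divides reads between similar sequences by estimate, which makes copies and their parents uncertain.

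Groups were taken from the labels. Counts were fitted in edgeR 4.0.16 (R 4.3.3) with TMM factors and the quasi-likelihood F test, all 24 rats in one model, and p-values were adjusted by Benjamini-Hochberg over all genes. The edgeR expression filter removed 0 genes. Log2 CPM used a prior count of 2. Standard errors were derived from each Log2FC and its F statistic. Ratios of paralogues were tested by exact permutation over 924 arrangements of 6 against 6 rats, which cannot give a p under 0.00216. The scripts were tested on simulated data with larger changes, placed in CC-Sed rats only and without differences in library composition. That test does not cover changes as small as those described here or the pooled comparison.

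The genes and lists were chosen with earlier results of these data known. Genes were named where they had the 3 largest or 3 smallest Log2FC in a comparison of 2 groups, the 6 smallest adjusted p-values among those called, the 3 largest or smallest mean CPM, the 3 largest SD or the 3 lowest correlations, and for known roles. Other genes came from the lists, and some genes are not reported singly here. The alternatives were DESeq2 1.42.0, limma 3.58.1 (voom with quality weights), upper-quartile scaling, TMM without the 81 genes, no filter, at least 100 counts in every rat, a Log2FC of at least 1, only the rats compared, a replicate block, the library number as a covariate and leaving out each rat. A further 3 settings were chosen after seeing the data, namely omitting CC-Sed replicates 1 and 6, omitting the 5 rats with a TMM factor above 1.1, and a covariate for the share of counts in the 10 highest genes. Promoters were RefSeq sequences of build GRCr8, which differs from the build of the counts, and no coordinate was carried between builds.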

Additional observations from a re-analysis of the deposited data

Results flagged for a closer look

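Single rats stood apart from the other 5 of their group, by Dixon's test of the gap to the nearest rat, for 8 of the 108 gene and group sets tested, near the rate of about 1 in 20 that chance gives. Sed replicate 6 was high for Rpl11 at 185.1 CPM (next rat 150.3), for Rpl5 at 344 CPM (next 296) and for Rplp1 at 454 CPM (next 365). CC-Ex replicate 5 was high for Rpl22l1 at 40.2 CPM (next 19.2) and low for Rpl3l at 147 CPM (next 365). CC-Sed replicate 6 was high for Rpl30l2 at 114.5 CPM (next 91.9). Ex rats were low for Rpl3l at 349 CPM in replicate 6 (next 400.2) and for Rpl17 at 61.6 CPM in replicate 5 (next 94.3).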

How the results depend on the processing

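Higher and lower calls are given for CC-Sed vs. Sed, then CC-Ex vs. Ex, then the pooled comparison. Higher calls numbered 1, 0 and 43, and brackets give the share of all genes called higher in the same order (4.3%, 0.875% and 17.2%). DESeq2 gave 8, 4 and 52 (7.36%, 4.91% and 19%), and limma-voom gave 12, 21 and 53 (13.4%, 5.72% and 20%). Upper-quartile scaling gave 0, 0 and 18 (3.36%, 0.184% and 12.2%). The library number as a covariate gave 2, 0 and 40 (5.3%, 0.341% and 15.4%). A Log2FC of at least 1 gave 0, 0 and 0 (1.38%, 0.442% and 2.06%). Without CC-Sed replicates 1 and 6 the higher calls numbered 0, 1 and 10 (0.332%, 1.3% and 9.52%). Without the 5 rats of high TMM factor they numbered 0, 0 and 0 (0%, 0.00922% and 6.38%). With the share of the 10 highest genes as a covariate they numbered 0, 0 and 1 (0.7%, 0.00922% and 4.08%). Leaving out 1 rat gave 0 to 13, 0 to 6 and 24 to 52 higher calls. The highest values came without CC-Sed replicate 4, CC-Ex replicate 4 and CC-Sed replicate 2 (9.24%, 5.77% and 18.5%). The lowest pooled value came without CC-Sed replicate 6 (12%). Lower calls numbered 1, 0 and 1. In CC-Sed vs. Sed they were 0 with only the rats compared, the replicate block, the library number and the Log2FC limit, and in the pooled comparison 0 with the last 2 of these. Both were 0 under the 3 settings added later, and 0 to 1 when 1 rat was left out (pooled, 0 without Sed replicate 5). Over all genes, higher and lower calls in CC-Sed vs. Sed were 467 and 234, against 365 and 337 with upper-quartile scaling, 799 and 537 by DESeq2 and 1450 and 1024 by limma-voom. In CC-Ex vs. Ex they were 95 and 13, against 20 and 3, 533 and 152, and 621 and 422. There they were 1 and 0 with the replicate block, with only the rats compared, without the rats of high TMM factor and with the covariate for the 10 highest genes, and higher calls ran from 2 (without any one of Ex replicates 2 to 6 or CC-Ex replicate 6) to 626 (without CC-Ex replicate 4) when 1 rat was left out. Replicate numbers did not pair the rats, as the mean correlation of same-numbered rats was between -0.23 and 0.095. With the replicate block higher calls were 1, 0 and 43 (3.2%, 0.00922% and 15% of all genes). The cause of these changes was not tested beyond the construction of the settings.

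Of 2353 alternatives for 66 single-gene results, 2213 kept direction and side of the threshold, 91 lost a call, 25 gained one and 24 changed sign, 0 of which concerned a called gene. Most of the 66 results were not called with all 24 rats and had no call to lose. Fits without 1 rat gave 24 of the alternatives for each result. The 91 are therefore not a share of the 2353 that measures how stable the calls were. With the covariate for the 10 highest genes, Rpl3l went to 0.0039, 0.12 and 0.064 (CC-Sed vs. Sed, CC-Ex vs. Ex, pooled), Rpl3 to -0.34 in CC-Ex vs. Ex and -0.14 pooled, Rpl11 to -0.0016 in CC-Sed vs. Sed, and Rpsa to -0.0078, Rplp0 to -0.014 and Rpl5 to -0.013 in CC-Ex vs. Ex. Without the rats of high TMM factor, Rplp1 went to -0.027, Rpl5 to -0.0026 and Rpl11 to -0.025 in CC-Sed vs. Sed, and in CC-Ex vs. CC-Sed Rpl3 to 0.17, Rpl17 to 0.45, Rpl3l to -0.024 and Rpl39 to -0.10. Without CC-Sed replicates 1 and 6, Rpl11 went to -0.014 in CC-Sed vs. Sed, and Rpl3 to 0.28, Rpl17 to 0.29 and Rpl3l to -0.031 in CC-Ex vs. CC-Sed. Rplp0 went to -0.0040 with upper-quartile scaling in CC-Ex vs. Ex and Rps4y2 to -0.048 with limma-voom in Ex vs. Sed. When 1 rat was left out, Rpl3l in CC-Ex vs. Ex ran from -0.23 to 0.015 and Rpl17 in CC-Ex vs. CC-Sed up to 0.074.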
